A study of Bos taurus with 39 samples.

Results

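Co-cultured oocytes (cocult) and control oocytes were compared after 22 h of in vitro maturation, and both groups came from cattle. The 6 libraries, 3 per group, were those whose labels name the treatment as control or Coculture at 22 h, out of 39 miRNA libraries in the series. Control oocytes stayed in intact cumulus-oocyte complexes (COCs) throughout maturation and lost their cumulus cells only afterwards, through hyaluronidase and vortexing. Oocytes of the cocult group were freed of cumulus cells in that way before maturation and then lay in medium shared with an equal number of intact COCs, from which a porous insert kept them apart. The study removed the zona pellucida of denuded oocytes with pronase after maturation. A further group, DO, held denuded oocytes that matured with no COC in the well. Oocytes with a visible polar body were kept in all these groups, and the replicates of a group shared their numbers with those of the other groups. A library held the oocytes of 2 pooled replicates from slaughterhouse ovaries, so that no value belongs to 1 cow. The groups differed in these removal steps as well as in the culture of the oocytes, and these cannot be told apart.

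A cumulus-enclosed oocyte receives small molecules through gap junctions on projections that cumulus cells send across the zona pellucida, and soluble factors pass in both directions through the medium. Denuding removes the junctions, and sharing the medium with COCs leaves the soluble route. MicroRNAs (miRNAs) are short RNAs that guide Argonaute proteins to target mRNAs, mainly through the seed, the bases from position 2 to position 8 at the 5′ end. A fully grown oocyte makes little new RNA as it resumes meiosis, and its stored mRNAs and small RNAs serve maturation and the first cleavages.

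The sequences below belong to miRNAs described in the results that follow. Of the miRNAs whose sequences are shown, bta-miR-21-5p alone had an adjusted p under 0.05 (edgeR). Predicted miRNAs are candidates that the study's software found in the reads, and they carry its numbers. Their sequences and positions were taken from the study's supplementary material, which lists 18 of them, and the bovine assembly, ARS-UCD1.2, is the one named in the study's methods for mapping. The bta-miR-21-5p sequence is the target of the study's RT-qPCR assay. Capitals mark the seed. The first 3 had estimates below 0 for cocult over control and the next 3 above 0, and none of the 6 predicted miRNAs shown was called. The last is shown because it resembles predicted miR-559.
bta-miR-21-5p: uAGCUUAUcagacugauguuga
predicted miR-906: gAGGGAUCccugccuagcggg
predicted miR-79: uGCAAGAUuuuaagcaugaccuu
predicted miR-559: gGCGCGCCcccgccgcgc
predicted miR-162: uCCAUCUGgacggcuuggcauuggg
predicted miR-672: gACCGAAGuggggaaagg
predicted miR-318-0: gCGCGCCCccgccgcgcg
Predicted miR-906 lies on the mitochondrial genome at chrM:16169-16279 on the minus strand. Predicted miR-79 lies at chr11:97182562-97182675 and predicted miR-162 at chr13:76526680-76526794, both on the minus strand. Predicted miR-559 was placed at chr27:6219131-6219238 on the minus strand, and predicted miR-672 at chr3:2472195-2472302 on the plus strand. Predicted miR-318-0 was placed at chr17:69639696-69639803 on the plus strand. The study lists these spans as genomic locations of the predicted miRNAs, and they were not checked against a genome. The annotation of that assembly was not used here. Among the 19 sequences read (the 18 and bta-miR-21-5p), 19 different seeds were found. Predicted miR-559 and predicted miR-318-0, each 18 bases long, shared a run of 17 bases that starts at base 2 of the first and at base 1 of the second, and both consist of G and C alone.

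Known and predicted miRNAs together made up 1995 entries, of which 1030 were known. At least 1 count was found for 1272 entries in these 6 libraries. The libraries held 131920, 74337 and 94375 counts in the control group and 158481, 60237 and 70069 in the cocult group, in the order of the replicate numbers, within a range of 11985 to 175429 over all 39. In the 6 libraries, these counts came to 0.71% to 1.34% of the reads left after removal of duplicates. In units of CPM (a count scaled to a common library total), the floor of 3 counts was 18.9 in the deepest and 49.8 in the shallowest of the 6, which covers counting error only. Replicates of a group differed by more than sampling noise, at a chi-square of 4.25 to 9.73 per degree of freedom, so none was a second copy of another. Predicted miRNAs took 56.0% ± 1.32 (SD, n = 3) of the counts in the control group and 56.1% ± 0.35 (n = 3) in the cocult group, with p = 1 in a two-sided exact permutation test. With entries of identical counts kept once, the shares of predicted miRNAs were 51.4% in the control group and 51.6% in the cocult group. The 10 most abundant miRNAs held 43.2% ± 2.08 and 43.8% ± 1.75 of the counts (exact permutation p = 0.7). The smallest p that this test can reach with 3 against 3 libraries is 0.1.

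A single miRNA passed the threshold at 22 h. bta-miR-155, which is encoded in a host gene that is switched on in activated immune cells and acts on many mRNAs of signalling pathways, was lower in the cocult group. Of 464 miRNAs tested, 117 known and 347 predicted, it was the 1 that reached an adjusted p under 0.05 together with a log2 fold change of at least 1 in size (0.216%). Its normalized level was 6611, 13122 and 3857 CPM in control replicates 1, 2 and 3. It was 2163, 1561 and 2941 CPM in the cocult replicates of the same numbers. All 3 cocult libraries lay below the lowest control library, and control replicate 2 stood far above the other two. The raw counts behind these levels were 840, 911 and 361 in the control group and 327, 95 and 204 in the cocult group. The log2 fold change of cocult over control was -1.67 (SE 0.29, 95% interval -2.27 to -1.07), a level 3.18 times lower, with an adjusted p of 0.0021 from the quasi-likelihood test of edgeR. The difference was in the same direction in 3 of 3 pairs of equal number, but its size ranged from -0.39 in pair 3 and -1.61 in pair 1 to -3.07 in pair 2 (log2 ratio of levels). An exact permutation test of bta-miR-155 alone gave p = 0.1.

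The call of bta-miR-155 was lost in 6 of 17 alternative treatments of the data. These were DESeq2, upper quartile scaling, the robust option of edgeR, a fit of all 36 libraries, no replicate block, and leaving out replicate 2. Without replicate 2 its log2 fold change was -0.96 (adjusted p = 0.629, edgeR), and with the robust option of edgeR, which gives unusually variable miRNAs their own spread, the adjusted p was 0.993. Control replicate 2 was also the library with 172 counts of bta-miR-206, a miRNA of skeletal muscle, against 1 to 8 counts in the other 5 libraries. Summed over the 5 muscle entries, the level relative to all counts of a library was 2354 CPM in that library, 42.4 and 189.5 CPM in the other control libraries, and 88.3 to 142.7 CPM in the cocult group. The remaining muscle miRNAs had no such peak in that library, with at most 18 counts of bta-miR-1 (in control replicate 1), at most 2 of bta-miR-133a, and none of bta-miR-133b or bta-miR-133c. The part of this library in the result for bta-miR-155 was not tested beyond the value without replicate 2.

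bta-miR-21-5p was lower as well, by less than the fold threshold. It is an abundant miRNA of many growing cell types that represses inhibitors of growth and survival signalling, and in follicles it is known from granulosa and cumulus cells. Its normalized level was 9122, 10371 and 7649 CPM in the control group and 6150, 4206 and 4598 CPM in the cocult group. The groups did not overlap, and every cocult library lay below its control partner. The log2 fold change was -0.86 (SE 0.18, 95% interval -1.24 to -0.49), a level 1.82 times lower, with an adjusted p of 0.016 (edgeR). With bta-miR-155 it made up the 2 of 464 miRNAs (0.431%) with an adjusted p under 0.05 whatever their fold. The pairwise log2 ratios were -0.57, -1.30 and -0.73. Pair 2 was again the widest, and without replicate 2 the log2 fold change was -0.60 (adjusted p = 0.701, edgeR). The adjusted p of bta-miR-21-5p was under 0.05 in 10 of the 17 alternative treatments. An exact permutation test of bta-miR-21-5p alone gave p = 0.1.

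**Figure D1:**
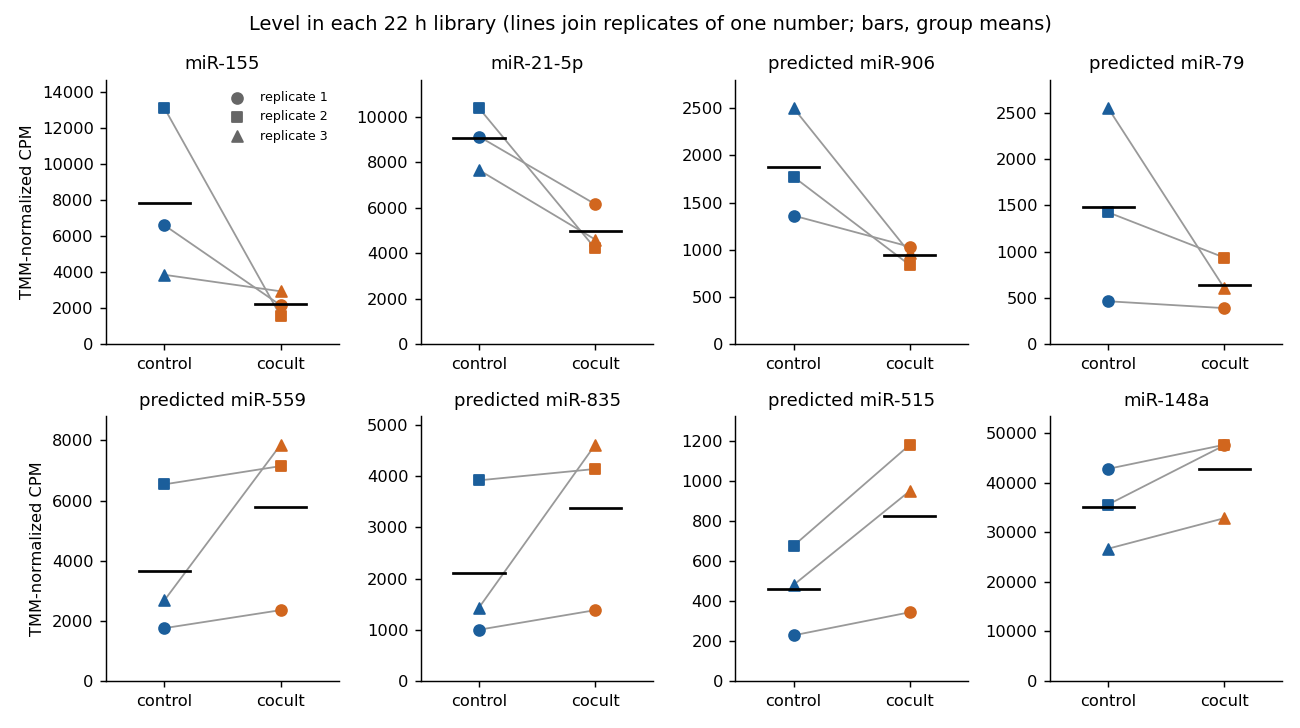
TMM-normalized level (CPM, linear axes from 0) of 8 miRNAs in the 3 control and 3 cocult libraries at 22 h; symbols mark replicate numbers, grey lines join libraries of one number, and black bars are group means. For bta-miR-155, bta-miR-21-5p and predicted miR-906 the 3 cocult points sit below all control points, while the groups overlap for the other 5. Each miRNA of the 5 has lines that run in a single direction. That was a condition for naming predicted miR-79, predicted miR-559, predicted miR-835 and predicted miR-515.

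Over all tested miRNAs the difference between the groups was small. The median log2 fold change was -0.03 and the median of its size was 0.19. A log2 fold change of at least 1 in size was estimated for 5 of 464, of which 3 were higher and 2 lower in the cocult group. For 343 miRNAs (73.9%) the 95% interval lay within 1 log2 unit of no change on both sides. With the miRNAs split by abundance into 3 sets of like size, this share was 94.2% in the most abundant set and 45.5% in the least abundant one. For the other miRNAs the interval did not exclude a log2 change of 1. The median standard error was 0.23 in the most abundant set and 0.39 in the least abundant one. An unadjusted p under 0.05 was reached by 24 of 464 (5.17%), 11 lower (2.37%) and 13 higher (2.8%). Because some predicted entries carry the same counts, these were 22 of 386 distinct profiles. The cocult libraries lay entirely below the control libraries for 15 miRNAs (3.23%) and entirely above them for 14 (3.02%). All 3 pairs were lower for 68 miRNAs (14.7%) and higher for 42 (9.05%).

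**Figure D2:**
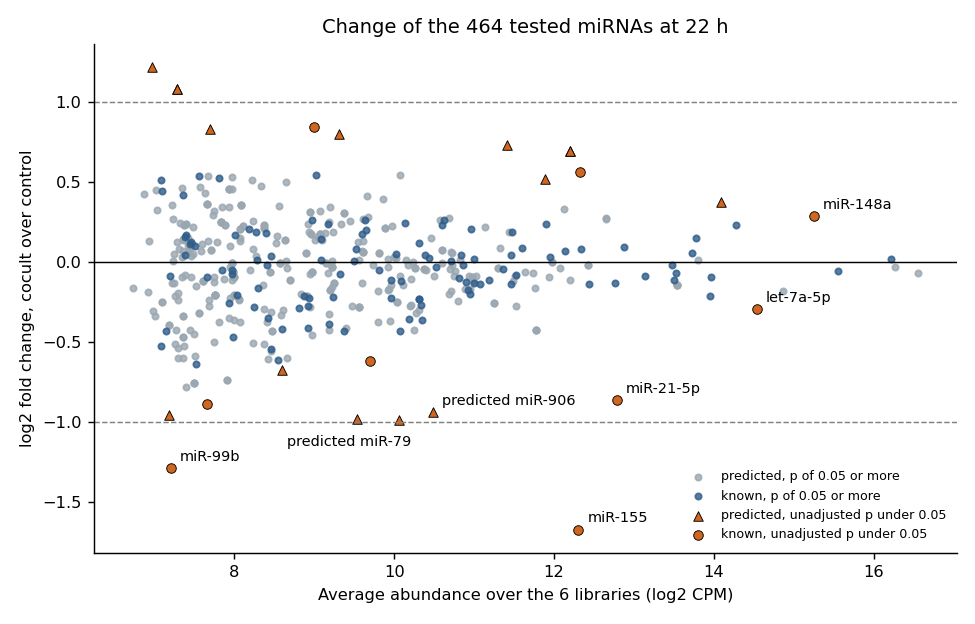
Log2 fold change of cocult over control (vertical axis) against average abundance in log2 CPM (horizontal axis) for the 464 miRNAs tested at 22 h; orange symbols have an unadjusted p under 0.05, circles are known miRNAs, triangles are predicted ones with such a p, and dashed lines mark a log2 fold change of 1 in either direction. bta-miR-155 at -1.67 stands below all other points, and 5 miRNAs lie beyond the dashed lines, 2 of them (predicted miR-422 and predicted miR-423) at the same point.

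Among the other miRNAs with the smallest p that were lower in all 3 pairs, none passed the adjusted threshold. Predicted miR-906, the candidate from the mitochondrial genome shown above, stood at 1362, 1772 and 2500 CPM in the control group and at 1032, 838 and 966 CPM in the cocult group. The groups did not overlap, and the cocult values were close together while the control values spread widely. Its log2 fold change was -0.94 (SE 0.25, 95% interval -1.45 to -0.42, adjusted p = 0.143, edgeR). Predicted miR-79 had control levels of 464, 1426 and 2553 CPM and cocult levels of 390, 936 and 605 CPM. Here the groups overlapped, because control replicate 1 was low, and pair 3 carried the widest gap with a log2 ratio of -2.08 against -0.25 and -0.61 in the other pairs. The log2 fold change was -0.99 (SE 0.30, adjusted p = 0.347, edgeR).

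Rarer miRNAs on that side had wide intervals. bta-miR-99b, of the miR-99 and miR-100 family that is known to act on mTOR and its pathway, had 16, 16 and 19 counts in the control group and 15, 2 and 4 in the cocult group, and its log2 fold change was -1.29 (95% interval -2.20 to -0.37). Scaled to the library, its level was 125.9, 230.5 and 203.0 CPM in the control group and 99.2, 32.9 and 57.7 CPM in the cocult group, without overlap, and the narrowest gap was that of pair 1. Predicted miR-585 had a log2 fold change of -0.95 and predicted miR-134 of -0.67. bta-let-7e, a member of the let-7 family, was at 834, 1066 and 1036 CPM in the control group and 569, 476 and 894 CPM in the cocult group, with a log2 fold change of -0.61 (SE 0.28). The adjusted p-values of these 4 lay between 0.375 and 0.914 (edgeR).

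On the higher side, 8 entries had the smallest p among those higher in all 3 pairs, and none of them passed the adjusted threshold. Predicted miR-559, the G and C sequence shown above, stood at 1755, 6539 and 2682 CPM in the control group and at 2354, 7147 and 7856 CPM in the cocult group. Its groups overlapped, and the log2 ratio was 1.55 in pair 3 against 0.42 and 0.13 in pairs 1 and 2. The log2 fold change was 0.69 (SE 0.23, 95% interval 0.23 to 1.16, adjusted p = 0.362, edgeR). Predicted miR-560 repeats these counts in every library and adds no evidence of its own. The near-identical predicted miR-318-0 was at 433, 1181 and 620 CPM in the control group and at 291, 2037 and 1124 CPM in the cocult group, a log2 fold change of 0.40 (SE 0.29, adjusted p = 0.990, edgeR). How the counting divided reads that fit both sequences is not given in the sources used here, and its part in these values was not tested.

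Predicted miR-835 resembled predicted miR-559 from library to library, with 1000, 3918 and 1432 CPM in the control group and 1382, 4140 and 4613 CPM in the cocult group. For predicted miR-515 the pairs were more alike, with 228 and 344, 677 and 1183, and 481 and 951 CPM in the control and cocult libraries of pairs 1, 2 and 3. Their log2 fold changes were 0.74 (SE 0.25) and 0.80 (SE 0.28), each with an adjusted p of 0.375 (edgeR). The known miRNAs on this side were bta-miR-3432a and bta-miR-151-3p. bta-miR-151-3p, which is cut from an intron of the gene of the adhesion kinase PTK2, stood at 323, 288 and 438 CPM in the control group and at 628, 838 and 461 CPM in the cocult group. Its groups did not overlap, by a narrow margin in replicate 3, and the log2 fold change was 0.85 (SE 0.30, adjusted p = 0.375, edgeR). bta-miR-3432a had a log2 fold change of 0.57 (SE 0.20). Predicted miR-422 and predicted miR-423, which share their counts, had one of 1.08 (SE 0.40), with 47.2, 144.0 and 96.2 CPM in the control group and 105.8, 246.4 and 245.0 CPM in the cocult group.

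**Figure D3:**
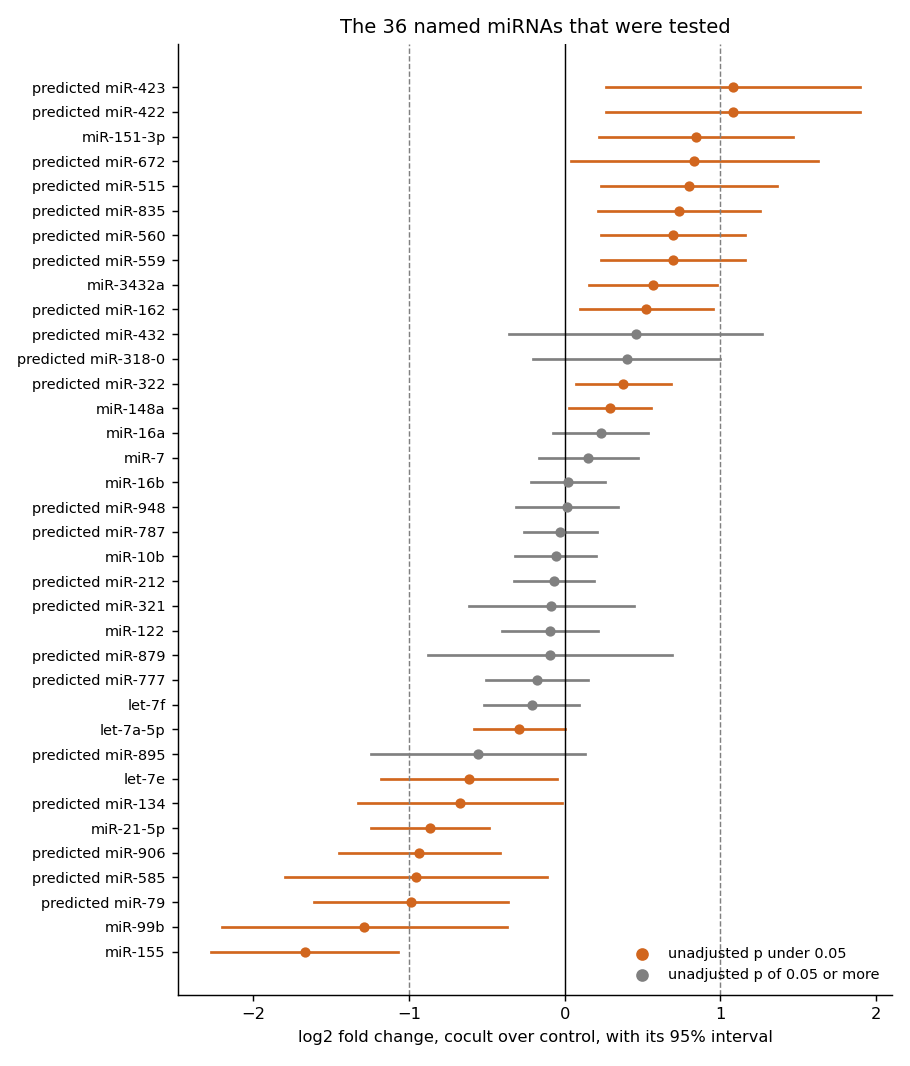
Log2 fold change of cocult over control (points) with its 95% interval (lines) for the 36 named miRNAs that were tested at 22 h, ordered by their change; orange marks an unadjusted p under 0.05 and grey a larger p, and dashed lines mark 1 log2 unit in either direction. The interval of bta-miR-155 lies wholly below -1, while the abundant miRNAs in the middle of the plot have the shortest intervals, around 0.

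The miRNAs that filled the libraries differed little. bta-miR-16b, of the miR-15 and miR-16 family that is known to act on cell cycle regulators, stood at 77210.1, 68476 and 80703 CPM in the control group and at 76383, 72796 and 80273 CPM in the cocult group. Its log2 fold change was 0.02 with a 95% interval of -0.21 to 0.26. For bta-miR-10b, encoded within a HOX gene cluster, it was -0.06 (95% interval -0.32 to 0.20), for bta-miR-16a 0.23, for bta-miR-7 0.15 and for bta-miR-122, the leading miRNA of liver, -0.09. bta-miR-148a, which is known to act on DNMT1, was at 42839, 35635 and 26709 CPM in the control group and at 47702, 47594 and 32879 CPM in the cocult group. It was higher in all 3 pairs while the groups overlapped, with a log2 fold change of 0.29 (SE 0.13, adjusted p = 0.789, edgeR).

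Among the abundant predicted miRNAs, predicted miR-212 had the most counts of all entries, with 82487 to 111444 CPM in the control group and 80205 to 104324 CPM in the cocult group. Its log2 fold change was -0.07 (95% interval -0.32 to 0.19). The values for predicted miR-787, predicted miR-777 and predicted miR-948 were -0.03, -0.18 and 0.01. Predicted miR-322 was higher in all 3 pairs, by 0.38 (SE 0.15, adjusted p = 0.480, edgeR), with overlapping groups.

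Of 18 predicted miRNAs singled out in the study, 17 could be tested, since predicted miR-364 had at most 13 counts in a library. None was called. At an unadjusted p under 0.05, 2 were lower and 3 were higher, beside 2.37% lower and 2.8% higher of all tested miRNAs, and the median log2 fold change was -0.09 beside -0.03. This list was chosen by the study on these libraries. Predicted miR-162 was at 3416, 3673 and 2265 CPM in the control group and at 4061, 4633 and 4541 CPM in the cocult group, without overlap. Its log2 fold change was 0.52 (SE 0.21, adjusted p = 0.490, edgeR). Predicted miR-672 had 19, 5 and 16 counts in the control group and 28, 20 and 17 in the cocult group. These counts overlapped, while its normalized levels, 149.5, 72.0 and 170.9 CPM against 185.2, 328.6 and 245.0 CPM, did not, and it had a log2 fold change of 0.83 (SE 0.39, adjusted p = 0.880, edgeR). The estimates for predicted miR-895, predicted miR-321, predicted miR-432 and predicted miR-879 were -0.55, -0.09, 0.46 and -0.09, all with intervals that included 0.

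By family, 88 tested miRNAs belonged to at least 1 of 17 lists. The let-7 family, whose members share a seed and are known to restrain growth and promote differentiation, had 8 of its 10 entries tested. All 8 estimates were below 0, against 256 of all 464 tested miRNAs (55.2%), and the median log2 fold change was -0.16 beside -0.03 for all tested. An unadjusted p under 0.05 was reached by 2 of the 8, bta-let-7e and bta-let-7a-5p, beside 2.37% of all tested miRNAs on the lower side, and none was called. bta-let-7a-5p stood at 24312, 28621 and 25288 CPM in the control group and at 19436, 20421 and 24101 CPM in the cocult group, which did not overlap, and its log2 fold change was -0.29 (SE 0.14, adjusted p = 0.949, edgeR). bta-let-7f also did not overlap, at 16615 to 17616 CPM against 14030.2 to 15294 CPM, with a log2 fold change of -0.21. Summed over the family the level was 54677 to 63841 CPM in the control group and 47564 to 59185 CPM in the cocult group, so the summed levels overlapped.

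Among the miR-148, miR-152 and miR-200 families, 5 of 6 tested members had an estimate above 0, against 208 of all 464, with a median of 0.19 beside -0.03. An unadjusted p under 0.05 was reached by 1 of them, bta-miR-148a, beside 2.8% of all tested miRNAs on the higher side. bta-miR-200c, of a family that is known to keep cells epithelial by acting on ZEB mRNAs, had an estimate of 0.54 (SE 0.30). In the miR-183, miR-96 and miR-182 cluster, which is transcribed as a unit, bta-miR-182 and bta-miR-183 had estimates of 0.18 and 0.14, while bta-miR-96 was at -0.89 (SE 0.41). In the miR-17-92 and miR-106b-25 clusters, known for driving proliferation, 5 of 9 estimates were above 0 with a median of 0.05. The medians were 0.05 for the miR-30 family (5 tested), 0.02 for the miR-15, miR-16 and miR-195 family (8 tested), 0.03 for the miR-10, miR-99, miR-100 and miR-125 families (6 tested) and 0.14 for the miR-26 and miR-29 families (4 tested). The medians were -0.25 for the miR-23, miR-24 and miR-27 clusters (4 tested), -0.20 for the miR-34 and miR-449 family (3 tested), -0.08 for the X-linked miR-105, miR-767 and miR-507 entries (5 tested) and 0.02 for the miR-2284 and miR-2285 family (3 of 148 entries tested). No member of these families was called.

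**Figure D4:**
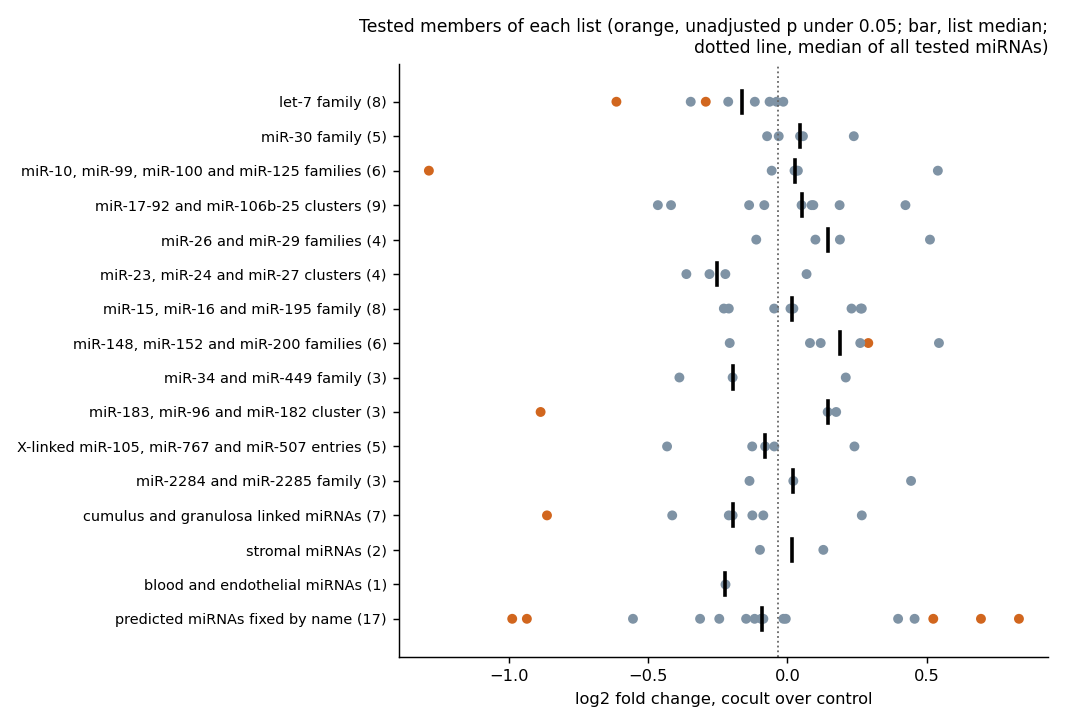
Log2 fold change of cocult over control at 22 h for each tested member (points) of 16 lists, with the number tested in parentheses; orange points have an unadjusted p under 0.05, black bars are list medians, and the dotted line is the median of all 464 tested miRNAs, -0.03. All 8 let-7 points lie below 0, and in most other lists the points fall on both sides.

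Lists of miRNAs known from other cells were examined as a check of the material. Of 15 entries known from cumulus and granulosa cells, 13 were detected and 7 tested. Of these 7, 6 had estimates below 0, against 256 of all 464 (55.2%), with a median of -0.20 beside -0.03. bta-miR-21-5p was the 1 with an unadjusted p under 0.05, beside 2.37% of all tested miRNAs on the lower side. The summed level of the list, relative to all counts of a library, was 14532, 15524 and 15661 CPM in the control group and 12090, 10857 and 10575 CPM in the cocult group, without overlap. With bta-miR-21-5p taken out it was 5746, 5838 and 8074 CPM against 6222, 6607 and 6023 CPM, and the groups overlapped. bta-miR-202, a miRNA of gonads, had an estimate of -0.41 (SE 0.30). bta-miR-503-5p had one of 0.27 (SE 0.24), and bta-miR-212 had no count in any of the 6 libraries, which allows up to 49.8 CPM in the shallowest. bta-miR-224 and bta-miR-383, both known from granulosa cells, had at most 13 and 7 counts in a library. The part of cumulus cells left on the oocytes in the difference of bta-miR-21-5p was not tested, and in bulk libraries fewer cells of a type and less RNA per cell cannot be told apart.

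The stromal list summed to 1547 to 2405 CPM in the control group and 1727 to 2019 CPM in the cocult group, and 2 of its 7 entries were tested, with a median of 0.02. The blood and endothelial list summed to 572 to 646 CPM and 428 to 747 CPM, and its 1 tested entry, bta-miR-150, had an estimate of -0.22. bta-miR-451, the leading miRNA of red blood cells, had 3 counts in control replicate 3 and none in the other 5 libraries, and bta-miR-142-3p, a miRNA of white blood cells, had none in the 6 libraries. These lists overlapped between the groups.

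At 1 h and 6 h of maturation no miRNA passed the threshold between the same groups. At 1 h 443 miRNAs were tested and 10 (2.26%) had an unadjusted p under 0.05, with a smallest adjusted p of 0.953 (edgeR). At 6 h 393 were tested and 14 (3.56%) had one, with a smallest adjusted p of 0.846. bta-miR-155 had log2 fold changes of -0.53 (SE 0.44) at 1 h and -1.09 (SE 0.54) at 6 h, neither called, with unadjusted p-values of 0.273 and 0.087. For bta-miR-21-5p they were -0.01 (SE 0.19) and -0.07 (SE 0.33), and for predicted miR-906 they were 0.09 (SE 0.31) and -0.01 (SE 0.52).

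The test of the difference itself set the change at 22 h against the mean of the changes at 1 h and 6 h in 1 model of 18 libraries. Of 542 miRNAs, 0 passed the threshold (smallest adjusted p = 0.994, edgeR), 7 (1.29%) had an unadjusted p under 0.05, and DESeq2 also called 0. bta-miR-21-5p differed by -0.81 (SE 0.29, 95% interval -1.42 to -0.20, unadjusted p = 0.013), bta-miR-155 by -1.18 (SE 0.78) and predicted miR-906 by -0.92 (SE 0.49). A dependence of these changes on time was therefore not detectable after adjustment.

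Levels scaled over all 39 libraries show where the groups stood over time. bta-miR-155 was at 309 ± 148 CPM (SD, n = 3) in control and 229 ± 182 CPM in cocult oocytes at 1 h, at 2453 ± 682 and 1688 ± 1250 CPM at 6 h, and at 8049 ± 4793 and 2372 ± 733 CPM at 22 h. The control libraries at 22 h, from 3778 to 13233 CPM, lay above those at 6 h, from 1807 to 3166 CPM, while the cocult ranges at 6 h and 22 h, 432 to 2932 and 1606 to 3066 CPM, overlapped. bta-miR-21-5p was at 4402 ± 1387 and 4245 ± 921 CPM at 1 h, at 3017 ± 444 and 3626 ± 1874 CPM at 6 h, and at 9266 ± 1566 and 5358 ± 1401 CPM at 22 h. The control libraries at 22 h, from 7492 to 10458 CPM, lay above every control and cocult library of the earlier times for this miRNA.

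Denuded oocytes that matured with and without COCs in the well were also compared directly. For DO over cocult at 22 h, 420 miRNAs were tested and 0 passed the threshold (smallest adjusted p = 0.059, edgeR), 30 (7.14%) had an unadjusted p under 0.05, and DESeq2 called 3, which are predicted miR-559, predicted miR-560 and predicted miR-835. bta-miR-155 stood at 2833 to 7736 CPM in the DO group, and its log2 fold change of DO over cocult was 1.11 (SE 0.33, unadjusted p = 0.0097, adjusted p = 0.347). bta-miR-21-5p was at 5610 ± 656 CPM in the DO group, next to 5358 ± 1401 CPM in the cocult group, and the difference was 0.12 (SE 0.18, 95% interval -0.30 to 0.54). Predicted miR-79 had the smallest p, with a log2 fold change of 1.21 (SE 0.20, adjusted p = 0.059). Predicted miR-906 was lower in the DO than in the cocult group by an estimate of -0.54 (SE 0.20, adjusted p = 0.591).

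The same control libraries also served for DO over control, so the values are only set side by side. bta-miR-155 had -0.50 (SE 0.32) for DO and -1.67 for cocult, each over control, bta-miR-21-5p had -0.68 (SE 0.15) and -0.86, and predicted miR-906 had -1.43 (SE 0.27) and -0.94. Predicted miR-559 had 2.17 (SE 0.43) and 0.69, and 1.38 (SE 0.32, adjusted p = 0.187, edgeR) in the direct comparison of DO over cocult. Of the 445 miRNAs tested for DO over control, 0 passed the threshold (edgeR) and 34 (7.64%) had an unadjusted p under 0.05. The paper did report differentially expressed miRNAs for that comparison. Between control and co-cultured oocytes the paper reported none at any maturation time. The call of bta-miR-155 for cocult over control differs from that result. The outcomes thus differ in both comparisons, and the cause was not tested.

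**Figure D5:**
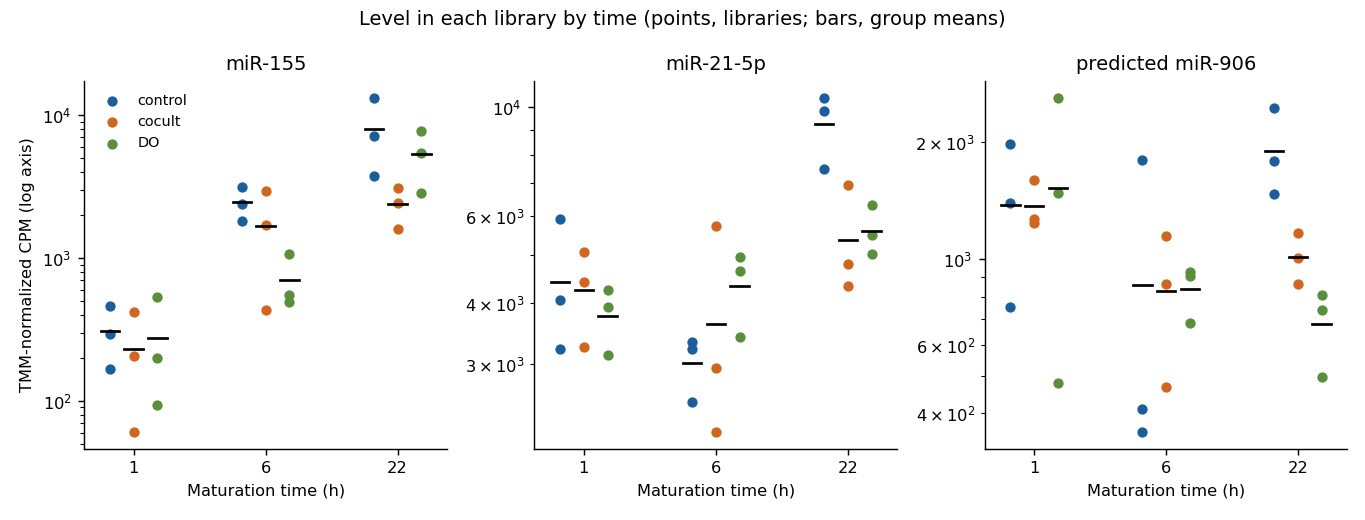
TMM-normalized level (CPM scaled over all 39 libraries, log axes) of bta-miR-155, bta-miR-21-5p and predicted miR-906 in control, cocult and DO libraries at 1, 6 and 22 h of maturation; points are libraries and bars are group means of 3. At 22 h the 3 control points lie above the 3 cocult points in each panel, and at 1 h and 6 h these groups overlap.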

How the data were processed

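Small RNA libraries of bovine oocytes were made with a kit that adds unique molecular identifiers. Per the labels and the paper, the authors removed adaptors and duplicate reads by identifier with UMI-tools (1.1.2 in the submitters' processing notes, while the paper names another version; FastQC 0.11.9 for quality), aligned to ARS-UCD1.2 and counted reads on mature miRNAs, either listed in miRBase or predicted with miRPro. The deposited files hold whole-number counts without normalization. How reads shared by several entries were divided is not given in the sources used here. Levels are relative to all miRNA counts of a library and give no absolute amounts.

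Known and predicted counts were joined. Groups and replicate numbers came from the labels. edgeR 4.0.16 (limma 3.58.1, R 4.3.3) was run with filterByExpr (minimum count 10, total 15), TMM scaling and the quasi-likelihood F-test in its earlier form without the robust option, with the replicate number as a block, which stands for the ovary pool that the paper enters as batch. Same-numbered control and cocult libraries deviated together from their group means (correlations 0.508, 0.319 and 0.181 over the tested miRNAs). Libraries of other numbers gave -0.365 to 0.078, values that lean below 0 because deviations from a group mean sum to 0. Benjamini-Hochberg adjustment ran over all miRNAs tested, and calls needed an adjusted p under 0.05 and a log2 fold change of at least 1 in size. Standard errors are the fold change divided by the square root of F, and intervals use the moderated degrees of freedom, 27.8 for this comparison, most of which come from pooling over miRNAs. The labels name no separate animals, so p-values measure the spread between these libraries. Single values were compared with exact two-sided permutation tests. The scripts were tested on simulated data.

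Named miRNAs were those called, the 8 with the smallest p in each direction that moved alike in 3 pairs, the 8 most abundant known and 5 most abundant predicted ones, bta-miR-21-5p, bta-miR-155 and predicted miRNAs the paper names; bta-miR-206 and marker entries were named after their values were seen. Members and lists were chosen with earlier results of these data known. The 17 alternatives included DESeq2 1.42.0, other scalings and filters, and leaving out each replicate. The paper's RT-qPCR and other experiments were not analysed here.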

Additional observations from a re-analysis of the deposited data

How the results depend on the processing

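The number of miRNAs called between cocult and control at 22 h, 1 in the values reported, was 1 with relative log expression factors, total counts, library sizes from deduplicated reads, the newer edgeR method, 10 counts in every library, known miRNAs alone and copies kept once. In each of these 7 settings the call was bta-miR-155. It was 0 without the replicate block, with upper quartile scaling, DESeq2, the robust option and all 36 libraries in the fit, with 8, 21, 12, 29 and 19 unadjusted p-values under 0.05. It was 2 with no fold-change threshold and 11 with no filter on low counts (2 higher, 9 lower, 1272 tested), and leaving out a replicate gave 0 to 6 (6, 0 and 4 without replicates 1, 2 and 3). Between DO and cocult, 0 calls became 3 with DESeq2, 7 without the filter, and 0 to 12 when a replicate was left out. The contrast of 22 h with earlier times had 0 calls in all 17 alternatives. Leaving out the replicate block ended the call of bta-miR-155 (log2 fold change -1.82, adjusted p = 0.370, edgeR) and changed no call in the other 2 comparisons. Over the 17 alternatives its log2 fold change ran from -2.31 to -0.96 and its adjusted p from 6.81e-28 to 0.999, and the call was lost in 6, the 5 above and without replicate 2. That of bta-miR-21-5p ran from -1.01 to -0.60 and its adjusted p from 1.73e-05 to 0.999. Without replicate 1 the calls were bta-miR-155, bta-miR-184, bta-miR-221, predicted miR-79, predicted miR-85 and predicted miR-906, and without replicate 3 bta-miR-155, bta-miR-151-3p, bta-miR-206 and predicted miR-85. In DO over cocult, bta-miR-155 was among the 4 calls without replicate 1 and not among the 12 without replicate 2. These miRNAs were named after their values were seen. The cause was not tested. The share of predicted counts differed by -0.69 to 0.97 percentage points when a replicate was left out.

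Estimates near 0 changed sign, and so did that of predicted miR-432, which was 0.46 in the values reported. With upper quartile scaling bta-miR-10b was at 0.027, predicted miR-212 at 0.016 and predicted miR-787 at 0.056, and with all 36 libraries they were at 0.024, 0.010 and 0.049. Without the filter bta-miR-10b was at 0.0091 and predicted miR-787 at 0.038, and with total counts predicted miR-787 was at 0.00090. When a replicate was left out, bta-miR-10b ran from -0.11 to 0.11, bta-miR-122 from -0.20 to 0.041, predicted miR-212 from -0.23 to 0.19, predicted miR-777 from -0.46 to 0.15, predicted miR-787 from -0.036 to 0.021, predicted miR-948 from -0.066 to 0.18, predicted miR-321 from -0.46 to 0.23, predicted miR-432 from -0.24 to 1.06 and predicted miR-879 from -0.32 to 0.072. No setting moved the median over all miRNAs by more than 0.078. Fits without a replicate rest on 2 pairs. With at most 158481 counts in a library, changes of rare miRNAs were the least certain.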

Other observations

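Detection was alike in both groups. Of the entries with a count, 1198 were found in at least 1 control library and 1185 in at least 1 cocult library, 1111 in both groups and 809 in all 6 libraries. Entries seen in 1 group alone numbered 87 for control and 74 for cocult, and most of them rested on a few counts. All 3 control libraries and no cocult library held 6 entries, and the converse held for 2. Among these, chosen after their values were seen, bta-miR-135b had 2, 2 and 10 counts in the control group and none in the cocult group, and bta-miR-450b had none in the control group and 2, 3 and 2 in the cocult group. Counts this low lie at or near the floor of 3, so no fold is given. Predicted miR-626 had 24 counts in control replicate 2 and none in the other 5 libraries, and predicted miR-563 had 13 of its 14 counts there, the library that also held the bta-miR-206 counts.

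Across groups, likeness by replicate number was clearest for number 1. Over the tested miRNAs, Spearman's rho between the control and cocult library of one number was 0.961, 0.923 and 0.925 for numbers 1, 2 and 3, and between libraries of a group it ran from 0.891 to 0.922. Between a control and a cocult library of other numbers it ran from 0.891 to 0.931, and the highest of these, control replicate 2 with cocult replicate 3, was above the values for numbers 2 and 3. These are correlations across miRNAs, which are not independent replicates and share the depth of their library.

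Summed over the 5 muscle entries, control replicate 2 at 22 h ranked 4 of 39 libraries, and the 33 libraries outside the comparison ran from 0 to 11980 CPM with a median of 148.7 CPM.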
